A study of Mus musculus with 6 samples.

Results

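Some stretches of the genome held many separate m6A-enriched regions close together in midbrain and striatum of adult mice, and 41 such loci are described here. m6A (N6-methyladenosine) is a methyl mark on adenosines inside RNA. Peaks of the deposited list that touched were joined into enriched regions, and regions up to 10 kb apart, measured from the end of one to the start of the next, were linked into a locus. A locus was kept where it held 10 or more regions and lay on chromosomes 1 to 19 or X. The members were thus selected on the peak positions themselves. Before further selection 51 loci qualified; 10 of them were dropped because they overlapped one of 4 intervals left out by rule (134 to 135 Mb of chromosome 7, 79 to 81 Mb of chromosome 10, 67 to 68 Mb of chromosome 13, where no locus qualified, and 37 to 38 Mb of chromosome 18). The remaining 41 loci were 0.351% of the 11683 loci on these chromosomes and held 489 (2.09%) of their 23402 regions.

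The peak list came from methylated RNA immunoprecipitation sequencing (MeRIP-seq), in which an antibody to m6A enriches marked RNA fragments. The labels attach this 1 list to 6 libraries of ribosomal RNA-depleted RNA, 3 immunoprecipitated and 3 input without immunoprecipitation, all from adult wild-type littermates on a C57BL/6 background. No label separates the brain areas, and the labels do not say whether a library came from 1 animal or from several pooled. The list holds chromosome, start and end only, so depth, strand, peak height and the spread between libraries are unknown for every locus, and neither the tissue's marker genes nor any difference between libraries could be checked.

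The mark is placed on nuclear RNA by a methyltransferase complex and can be removed by demethylases, of which FTO, the enzyme named in the series title, is one. Reader proteins that bind marked RNA affect its splicing, stability and translation. In messenger RNA the mark is known to gather around stop codons, in 3′ untranslated regions and in long internal exons. Linking by distance takes no account of genes, so a locus may fall within 1 gene or run across several. The coordinates are in mouse build mm9, for which no annotation was at hand, so the genes at these loci were not determined, and no sequence is shown. Every position below is in mm9, counted from 1. Spans, gaps and covered shares are likewise in bases of the genome, although the peaks come from RNA. A gap may therefore hold introns or sequence between genes, and spacing along a transcript was not measured.

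The loci ranged from short, densely filled stretches to long chains with wide empty parts. The median locus held 11 regions (range 10 to 22), listed as 19 peaks (13 to 45). The 229 regions of 200 bases or less were each listed as 1 peak, and wider regions as more. The number of peaks thus followed region width and is not a separate measure. Exactly 10 regions were found in 16 loci, 11 in 9, 12 to 14 in 10, and 15 or more in 6. The span, from the first to the last enriched base, had a median of 16.5 kb (interquartile range 11.8 to 24.2 kb) and extremes of 4.70 and 48.5 kb. The number of enriched bases varied less, with a median of 3050 (interquartile range 2625 to 3650, extremes 1850 and 7650). The covered share, which is the enriched bases divided by the span, had a median of 18.3% (interquartile range 12.1 to 30.9%). It was under 10% in 7 loci, from 10% to under 20% in 15, from 20% to under 40% in 14, and 40% or more in 5. All loci together covered 137100 of 787175 spanned bases, or 17.4%. These measures describe the positions that chose the loci, so no test was applied to them.

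**Figure D1:**
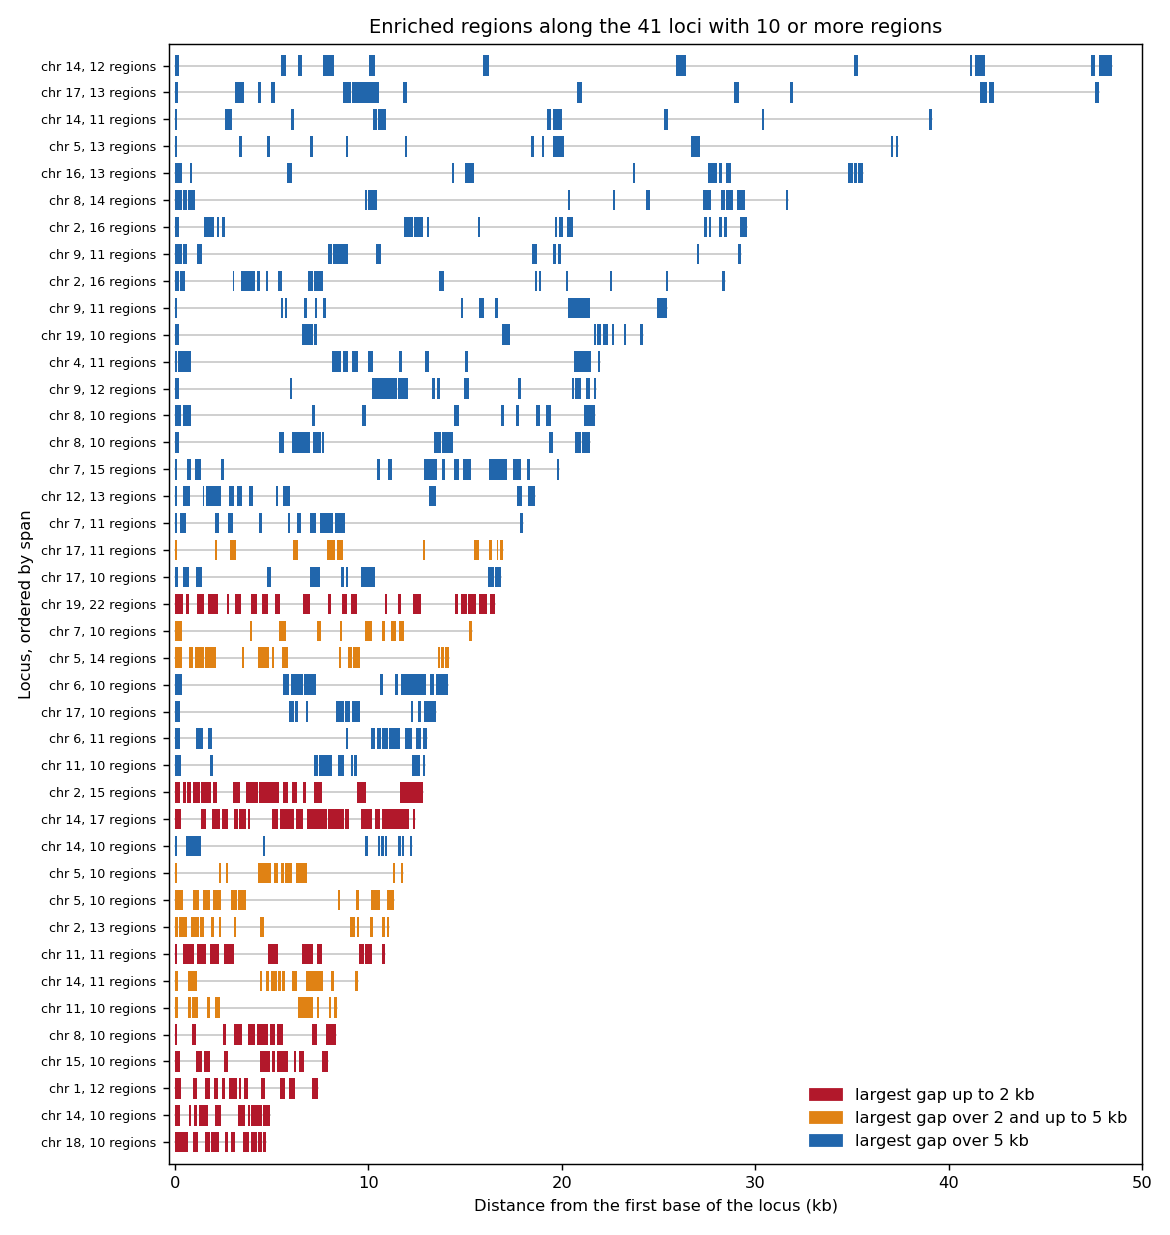
Map of the 41 loci, ordered by span, with distance from the first base of each locus in kb on the x axis and every enriched region drawn to scale as a bar. Colour gives the largest gap in the locus; the shortest gaps are too narrow to be seen. The short loci at the bottom are filled with regions, and the longest at the top, 48.5 kb on chromosome 14, holds 12 regions set far apart.

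The number of loci rests on the linking distance. Linking at 5000 bases left 21 loci and linking at 20000 bases gave 106, with median covered shares of 36.5% and 7.79%. The largest gap inside a locus shows how firmly it holds together, and the loci are described below in 3 groups by that gap. The bounds of 2000 and 5000 bases were set after the values had been seen and serve only to order the text. The largest gap was up to 2000 bases in 9 loci, over 2000 and up to 5000 bases in 8, and over 5000 bases in 24. The median covered share was 40% in the first group, 25.4% in the second and 13.8% in the third, an order that follows in part from the grouping by gap.

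The 9 loci with no gap over 2000 bases were the closely packed ones. The locus with the most regions was chr19:9076201-9092725, with 22 regions over 16.5 kb and a covered share of 36.5%. Its regions were 100 to 500 bases wide, and its gaps ran from 50 to 1775 bases with a median of 350. Its widest region made up 8.30% of the enriched bases, the lowest such share of the 41 loci, in the locus with the most regions. The enrichment there was thus divided among many pieces. The 2 longest gaps, 1775 and 1450 bases, both lay in the upper part of the locus, and after the longer of them came 6 regions separated by no more than 125 bases.

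The locus chr14:61821676-61834075 held the most enriched bases, 7650 over a span of 12.4 kb, a covered share of 61.7%. Its 17 regions were widest toward the high-coordinate end. In order their widths were 300, 250, 425, 275, 200, 350, 150, 275, 725, 350, 1000, 800, 225, 550, 275, 1400 and 100 bases. The region of 1400 bases, from 61832376 to 61833775, was the widest in any of the 41 loci. Gaps of 100 bases or less made up 7 of the 16 gaps, and joining across them left 10 regions.

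A similar build was seen at chr2:121125276-121138075, with 15 regions, 6350 enriched bases and a covered share of 49.6% over 12.8 kb. Of its regions, 2 were wider than 1000 bases. One of 1050 bases lay from 121129626 to 121130675, and one of 1175 bases from 121136901 to 121138075 closed the locus. The final region stood behind a gap of 1775 bases, preceded by a gap of 1825 bases, while none of the other gaps exceeded 850 bases. When only regions of at least 225 bases, the median over the complete list, were used, 3 loci still reached 10 regions, and they were the 3 just described on chromosomes 19, 14 and 2, with 14, 14 and 12 regions.

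The shortest loci reached 10 regions within less than 5 kb. At chr18:84727726-84732425, 10 regions filled 62.8% of 4700 bases, the highest covered share of the 41. In order the regions were 650, 250, 250, 450, 175, 200, 300, 325, 175 and 175 bases wide, and the gaps between them were 300, 375, 25, 275, 150, 425, 100, 50 and 50 bases. No gap there was as wide as the widest region. At chr14:84843551-84848450, 10 regions covered 53.6% of 4900 bases, with a largest gap of 875 bases between the fifth and the next region. In each of these loci 4 gaps were 100 bases or less, and joining across such gaps left 6 regions in each. At chr1:63349226-63356600, 12 regions covered 40% of 7375 bases, and only 1 gap was as short as 100 bases, so 11 regions remained after joining. These 3 loci were the only ones that stayed whole when regions had to lie within 1000 bases of the next.

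The other 3 closely packed loci had 10 or 11 regions. At chr11:3540001-3550875, 11 regions covered 38.9% of 10.9 kb and had a median width of 450 bases, the largest of any of the 41 loci; 6 consecutive regions there were 450 to 600 bases wide. At chr15:76001626-76009550, 10 regions covered 38.5% of 7925 bases. At chr8:124120626-124128950, 10 regions covered 36.9% of 8325 bases. The latter locus had 3 consecutive gaps of 100, 100 and 125 bases in its middle, flanked by gaps of 1475 bases on one side and 1400 bases further out on the other. Median region width was 250 bases or more in all 9 closely packed loci and in 8 of the other 32 loci. The grouping used gaps and not widths, but both come from the same list, so this is given as a description.

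In the 8 loci of the second group the largest gap made up 26.9% to 65.6% of all gap length. At chr5:144005901-144017225, 6 regions of 300 to 425 bases lay within 3650 bases and were 61.6% covered. Beyond a gap of 4775 bases came 4 further regions of 100 to 450 bases. At chr11:60591126-60599500, a gap of 4000 bases separated 5 regions from another 5 and was the largest such share of the group. At chr14:112073801-112083275, 11 regions covered 32.2% of 9475 bases, and a run of 8 regions within 3825 bases included one of 900 bases. At chr2:25430201-25441275, a gap of 4425 bases divided 13 regions into 8 and 5.

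The remaining loci of that group were similar in scale. At chr5:137727201-137741375, 14 regions covered 27.2% of 14.2 kb. At chr5:34332401-34344175, 10 regions covered 21.0% of 11.8 kb, of which 5 lay within 2550 bases and covered 76.5% of them. At chr17:25954801-25971775, 11 regions covered 13.7% of 17.0 kb. At chr7:52955201-52970550, 10 regions covered 15.3% of 15.4 kb; no gap there was shorter than 175 bases, the largest such minimum of the 41 loci, and joining regions within 100 bases left all 10.

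The 24 loci with a gap over 5000 bases are called chains below, since each would be divided by linking at 5000 bases. Their median span was 21.9 kb and their median number of enriched bases was 3038, against 8.33 kb and 3075 bases in the closely packed group. The longest was chr14:21507426-21555875, where 12 regions covered 8.26% of 48.5 kb. It had 6 gaps over 5000 bases and a median gap of 5275 bases, and no run of regions within 1000 bases of one another held more than 2. Next came chr17:34045301-34093050, where 13 regions covered 9.37% of 47.8 kb. There a region of 1375 bases, from 34054451 to 34055825, made up 30.7% of the enriched bases. The locus chr14:28274651-28313775 held 11 regions over 39.1 kb, with a covered share of 6.13%. Its tightest group was 3 regions at most 50 bases apart, which filled 89.3% of 700 bases, and another pair of its regions lay 100 bases apart.

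The lowest covered share of the 41 was 5.95%, at chr5:145888926-145926300, where 13 regions lay over 37.4 kb. The median region there was 125 bases wide, close to the narrowest width of 100 bases in these loci. At chr16:5049426-5084975, 13 regions covered 8.02% of 35.6 kb, and the last 4 of them lay within 775 bases that were 83.9% covered. Both loci with 16 regions belonged here. They were chr2:25099376-25128925, with 12.5% of 29.6 kb covered, and chr2:30809001-30837425, with 12.1% of 28.4 kb covered. In the latter, regions 11 to 16 were all 100 to 125 bases wide and 4 of the 5 gaps between them were over 1000 bases.

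A few of these loci had a packed core that met the threshold by itself. After linking at 2000 bases, 12 loci still held 10 or more regions: the 9 closely packed ones and parts of 3 others. These parts were the first 10 regions of chr7:116173626-116191600, the last 11 regions of chr7:135009301-135029150 and the first 10 regions of chr12:110796426-110815025. In the first of these, 1 region of 125 bases stood 9075 bases beyond the rest. The second begins 9.30 kb above the left-out interval of chromosome 7, and the nearest region below it was 23.8 kb away.

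Wide regions stood out in other chains. At chr9:106776401-106798175, 12 regions covered 16.3% of 21.8 kb, and one of 1300 bases held 36.6% of the enriched bases. At chr9:121651801-121677250, one of 1175 bases held 38.8%, with 11 regions over 25.5 kb. At chr6:59291301-59305400, 10 regions covered 30.9% of 14.1 kb, the highest share of the chains, and one of them was 1075 bases wide. At chr14:60178401-60190675, a region of 775 bases held 41.9% of the enriched bases, the largest such share of the 41 loci. The other 9 regions there were 100 to 175 bases wide. The locus as a whole, with the 775-base region, had 1850 enriched bases, the fewest of any locus.

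The other 10 chains lay on 7 chromosomes, with covered shares from 9.40% to 23.4%. On chromosome 8 they were chr8:73883751-73905475 with 10 regions over 21.7 kb, chr8:125728451-125760125 with 14 over 31.7 kb, and chr8:127413201-127434675 with 10 over 21.5 kb. On chromosome 17 they were chr17:25019926-25033400 with 10 regions over 13.5 kb and chr17:34158201-34175050 with 10 over 16.9 kb. The others were chr4:129284926-129306900 with 11 regions over 22.0 kb, chr6:116575151-116588175 with 11 over 13.0 kb, chr9:53370301-53399550 with 11 over 29.3 kb, chr11:74978876-74991800 with 10 over 12.9 kb, and chr19:8948001-8972200 with 10 over 24.2 kb. Region number and reach were not ordered alike: the chain of 14 regions was the longest of these 10, but those of 10 regions ranged from 12.9 to 24.2 kb.

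Across the 41 loci, longer spans went with few additional enriched bases. Spearman's rho between span and enriched bases was 0.10 (n = 41 loci), and that between span and number of regions was 0.41. Enriched bases and number of regions had a rho of 0.53. All of these come from the same positions in 1 list, so they are descriptions without a p-value. In 26 loci a window of 5000 bases, starting at one of the regions, held more than 50% of the enriched bases of the locus. The median of the most enriched bases in such a window was 1850, and the extremes were 775 and 4000.

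**Figure D2:**
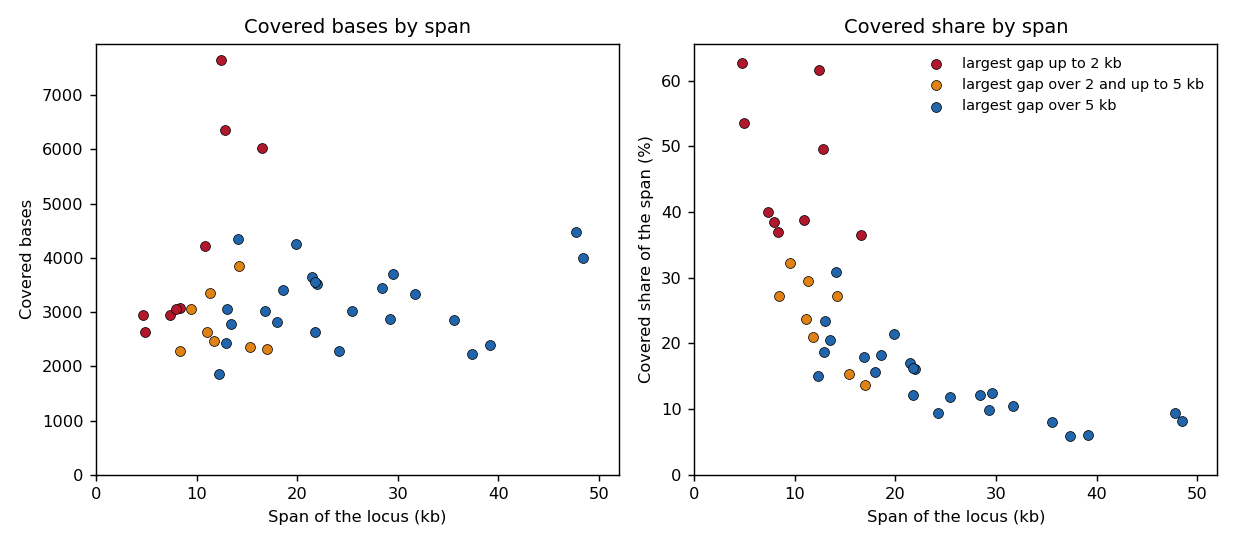
Enriched (covered) bases on the left and covered share in percent on the right, against the span of each of the 41 loci in kb; each point is a locus and colour gives its largest gap. The enriched bases lie between 1850 and 4475 in all but 3 loci, and those 3, closely packed, hold 6025, 6350 and 7650.

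The widths of the 489 regions ran from 100 to 1400 bases. Their median was 225 bases and their quartiles were 150 and 350 bases. The 22454 other regions on the same chromosomes, outside the left-out intervals, had the same median and quartiles and reached 2525 bases. Regions over 500 bases made up 10.4% (51 regions) against 11.6% elsewhere, and regions over 1000 bases 1.43% (7 regions) against 1.44%. Regions at the minimum of 100 bases made up 13.1% against 12.6%. A region of 100 bases occurred in 31 of the 41 loci, a region over 500 bases in 29 and one over 1000 bases in 6. No test of these differences was made, because regions of a locus are not independent of one another.

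Within the loci, mean width was larger for regions with a close neighbour. The 178 regions within 100 bases of another of the same locus had a mean width of 319 ± 235 bases (SD). The 123 regions whose nearest neighbour was over 100 and up to 300 bases away had a mean of 285 ± 162 bases. It was 246 ± 157 bases for the 103 regions over 300 and up to 1000 bases away, and 235 ± 190 bases for the 85 regions farther away. The standard deviations exceed the differences between these means, and the regions of 1 locus share their source. In the same order, median widths were 250, 250, 200 and 175 bases. The median thus did not differ between the nearest class and the next. The first and last regions of the loci had a median of 200 bases and the 407 inner ones 225 bases. The widest region was first or last in 6 of the 41 loci.

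Gaps between neighbouring regions ran from 25 to 9850 bases. Of 448 gaps, 22 (4.91%) measured 25 bases, the step of the grid on which all 978 region ends lay, and 101 (22.5%) were 100 bases or less. The median was 425 bases, 299 gaps (66.7%) were up to 1000 bases, and 46 (10.3%) were over 5000 bases. These 46 gaps accounted for 49.8% of all gap length. A gap of 25 bases was found in 20 loci, and 4 loci had no gap of 100 bases or less. In the 2753 loci of 3 to 9 regions, the median of 8281 gaps was 475 bases and 21.0% were 100 bases or less. Among them, the loci of 9 regions had 232 gaps with a median of 350 bases, and 19.4% were 100 bases or less. Gaps of 25 bases made up 7.67% in the loci of 3 to 9 regions and 8.19% in those of 9.

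Evenness of spacing was measured as the coefficient of variation (CV) of the gaps, the standard deviation divided by the mean, which is 0 when all gaps are equal. It rests on 9 to 21 gaps per locus, measured on the genome and not along a transcript. The median CV was 1.27 (interquartile range 0.989 to 1.55), so in most loci the standard deviation of the gaps was larger than their mean. It was below 1 in 11 loci and over 1.5 in 15, and none of the loci was evenly spaced. A single gap was more than 25% of the span in 25 loci, and more than 50% of all gap length in 9. In 31 loci the 2 longest gaps together made up more than 50% of gap length. The CV ranked with the share of the span taken by the longest gap (Spearman's rho 0.86), which is in part by construction, and hardly with the span (rho -0.06) or the number of regions (rho 0.01).

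The most even gaps were those of chr1:63349226-63356600, with a CV of 0.693. Its gaps were 650, 425, 175, 225, 200, 100, 150, 650, 750, 225 and 875 bases in order. The short ones lay together in the lower middle part and the longer ones toward both ends. The chromosome 18 locus followed with a CV of 0.781, and chr7:52955201-52970550 with 0.846. The last reached its low value at a different scale, with gaps of 175 to 3500 bases and a median of 1175. Low values were also seen in 2 of the longest chains, with 0.849 at chr14:21507426-21555875 and 0.861 at chr14:28274651-28313775.

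The least even gaps were those of chr6:116575151-116588175, with a CV of 2.12. In order they were 850, 275, 6925, 1175, 125, 25, 50, 225, 200 and 125 bases. The gap of 6925 bases alone was 53.2% of the span, and 7 of the 11 regions lay within 2900 bases at the high-coordinate end. The locus chr11:60591126-60599500 had a CV of 1.86 and chr7:135009301-135029150 one of 1.81. Each has 1 gap, of 4000 and 7925 bases, far longer than the next in its locus, of 500 and 1700 bases.

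**Figure D3:**
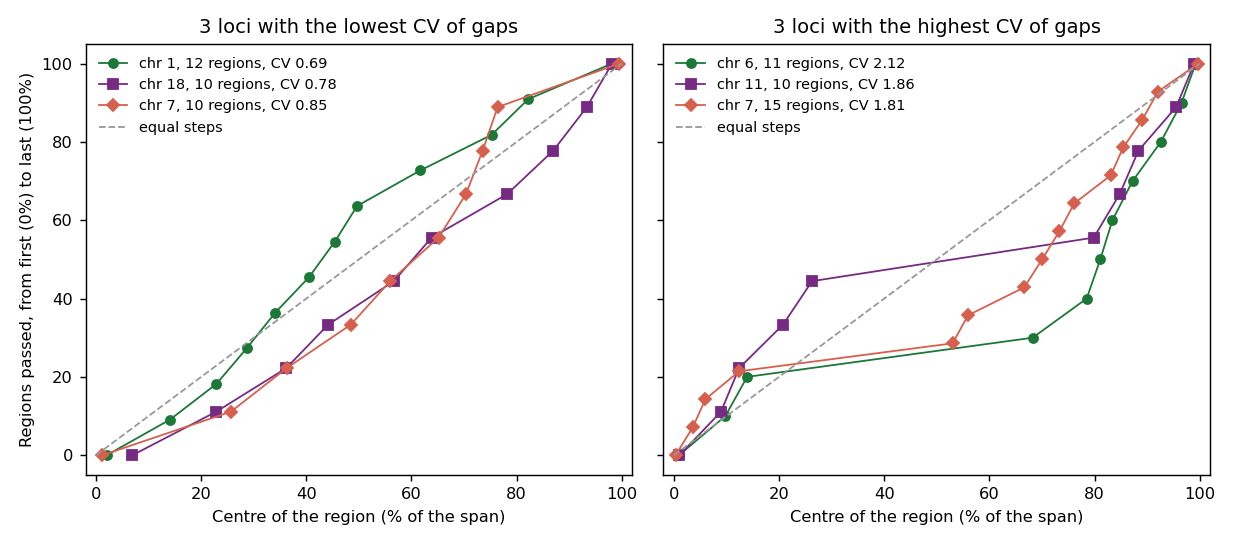
Regions passed, from the first (0%) to the last (100%), against the position of each region's centre as a percentage of the span, for the loci with the 3 lowest (left) and 3 highest (right) CVs of gaps; the dashed line marks equal steps. The even loci stay near the line, and each uneven locus has a flat stretch at its longest gap.

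Measured between region centres, spacing was more even in the closely packed loci. The CV of centre-to-centre distances had a median of 1.06 over all loci and extremes of 0.390, at the chromosome 18 locus, and 1.61, at chr6:116575151-116588175. It was below 0.5 in 3 loci, which were that on chromosome 18, chr14:61821676-61834075 (0.412) and chr1:63349226-63356600 (0.458). For the chromosome 14 locus this differs from the CV of its gaps, 1.16, since centre distances also contain the widths. In the 9 closely packed loci the CV of centre distances ran from 0.390 to 0.810, and that of the 24 chains from 0.784 to 1.61. The gap grouping enters both measures.

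**Figure D4:**
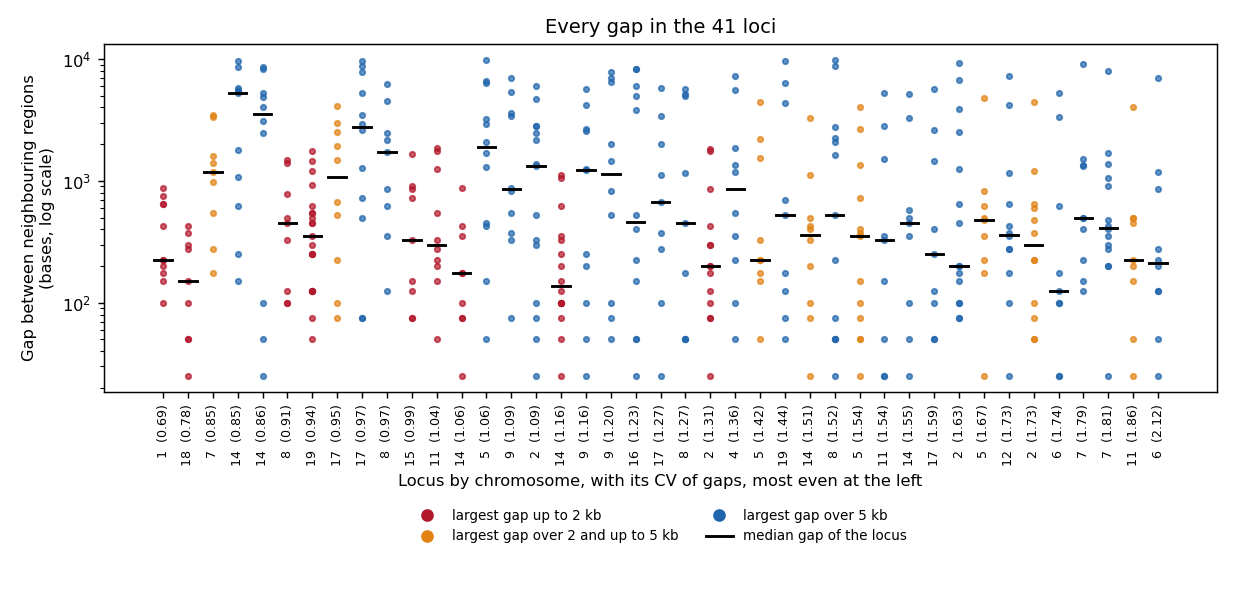
Every gap in the 41 loci in bases on a log axis, with the loci ordered by their CV of gaps (chromosome and CV below each column) and the median gap as a black bar. In loci at the right, 1 or 2 long gaps stand far above the rest. The longest gap of the locus at the far right is 6925 bases, and some loci have longer ones.

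Enriched bases were lopsided within some of the loci. The share lying before the midpoint of the span had a median of 50% (interquartile range 38.6 to 62.0%). It ranged from 17.5%, at chr11:74978876-74991800, to 95.6%, at chr7:116173626-116191600. It was over 70% in 7 loci and under 30% in 7. The loci of 3 to 9 regions had the same median share, with an interquartile range of 35.1 to 64.7%. Without strand the lower-coordinate side cannot be assigned to the start or end of a transcript.

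The loci lay on 16 of the 20 chromosomes. Chromosome 14 had the most, with 6 loci holding 71 regions, or 8.20% of its 866 regions. Chromosomes 2, 5, 8 and 17 had 4 each. Chromosome 11, which carries 1717 regions, had 3 loci with 1.81% of them. Chromosomes 3, 10, 13 and X had none; on chromosome 10, 2 loci were left out with the interval there, and on chromosome 13 none was. Of the left-out loci, 7 were on chromosome 18 and 1 on chromosome 7. Pairs of members within 1 Mb of each other numbered 4. The closest, which start at 34045301 and 34158201 on chromosome 17, were 65.2 kb apart, and the pair on chromosome 19 was 104 kb apart.

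By construction no region lies within 10 kb of a locus, and the empty sequence beyond varied widely. On the nearer side it measured a median of 26.4 kb, was 20 kb or less in 15 loci, and exceeded 100 kb in 4 loci. The most isolated were chr14:112073801-112083275, with 920 kb free of regions below and 4104 kb above, and chr7:116173626-116191600, with 1286 kb below and 508 kb above. The locus chr14:84843551-84848450 had 4674 kb without a region below it. The other loci with over 100 kb on both sides were the closely packed ones on chromosomes 1 and 18.

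Loci just inside and just outside the threshold had similar medians. The 16 loci with exactly 10 regions had a median span of 12.6 kb, a median covered share of 20.8% and a median CV of gaps of 1.35. For the 29 loci with 9 regions the medians were 13.4 kb, 21.9% and 1.24, and their covered shares ran from 5.59% to 70.3%. A minimum of 9 regions would have given 70 loci, and one of 12 regions 16 loci.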

How the data were processed

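The authors deposited 1 list of 42886 peaks with 3 columns (chromosome, start, end), shared by the 6 libraries per the labels. The submitters' processing notes name SAMtools 0.1.18, BWA 0.6.2-r126 and build mm9. The peak caller and its threshold were not given in the sources used here, and neither was the use of input. A width or gap is therefore limited by an unknown cut, and 1 long enriched stretch can be listed as several regions. Starts were read as counted from 0. Touching peaks were joined, regions up to 10000 bases apart were linked, and spans, widths, gaps and CVs (sample SD) were computed per locus with scipy 1.17.1, pandas 2.3.3 and numpy 2.4.6 in Python 3.11.15, and plotted with matplotlib 3.10.9. Joining and linking were tested on 500 simulated loci, of which 100% were recovered. The measures compared were the ends, number of regions, enriched bases, median width, median gap and CV of gaps. Other measures, among them the CV of centre distances, were not compared in this way. The members and measures were chosen with earlier results of these data known. Loci named individually were to be the 5 with the most regions and the extremes of span, covered share, evenness and width, 18 loci in all; the others are also listed so that each member is accounted for.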

Additional observations from a re-analysis of the deposited data

How the results depend on the processing

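No paired analysis was possible because the list holds no value per library, and for the same reason no library was left out. The linking distance, the joining of near peaks and the minimum number of regions decided how many loci were found. In the order loci, regions in them, the values were 21 and 248 with linking at 5000 bases, 106 and 1308 at 20000 bases, 12 and 148 at 2000 bases, 17 and 197 with peaks up to 100 bases apart joined, 3 and 40 with only regions of 225 bases or more, 70 and 750 with 9 or more regions, and 16 and 230 with 12 or more. Linking at 5000 and 2000 bases, joining, wider regions alone and 12 or more regions each found subsets of the 41 loci and no others. This follows largely from the settings, which can only split, shrink or drop loci. The medians are called moved where they left the 95% order-statistic interval of the reported median. That interval treats the 41 loci, the 489 regions or the 448 gaps as independent, although regions and gaps of 1 locus are not. The settings also share loci, so moved is a descriptive label and not a test. Linking at 5000, 20000 and 2000 bases moved the median span to 10875, 45925 and 8550 bases, the covered share to 36.5%, 7.79% and 39.4%, the gap to 325, 700 and 275 bases, and the CV of centre distances to 0.649, 1.21 and 0.563. The CV of gaps moved to 1.04 at 5000 and 0.932 at 2000 bases, and the median width to 275 bases at 2000. Joining peaks up to 100 bases apart moved the gap to 650 bases, the CV of gaps to 0.952 and the CV of centre distances to 0.784. Keeping only wider regions moved the covered share to 46.1%, the width to 350 bases, the gap to 325 bases and the CV of centre distances to 0.674. With 9 or 12 regions as the minimum, or with the left-out loci included (51 loci, 647 regions), no median moved. Linking at 2000 bases and including the left-out loci were chosen after seeing the data. Depth and peak heights are unknown, so the effect of a stricter peak cut on gaps and widths could not be computed.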
